A study of Rattus norvegicus with 6 samples.

Results

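The annexins are a family of proteins that bind negatively charged membrane lipids when calcium rises, and 8 of their genes (Anxa1, Anxa2, Anxa3, Anxa4, Anxa5, Anxa6, Anxa7 and Anxa11) are described here in pancreatic islets of young and adult rats. The genes were taken by symbol from tables of 17055 gene rows, and all 8 were found and passed the filter on low counts that left 10124 genes for testing. Polyadenylated RNA of whole islets from Sprague-Dawley rats had been sequenced at 2 ages, with 3 libraries labelled as biological replicates at each. The P10 group held islets of pups aged 10 days (1.5 weeks in the labels), whose sex the labels do not give. The adult group held islets of males aged 3 months (12 weeks), so that a difference in sex, if there was one, cannot be told apart from age. The labels call both groups control rats and name no treatment, and they do not say whether several animals were pooled into a replicate. The title of the series places the comparison in the maturation of beta cells after birth.

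Every annexin has a conserved core of repeats that holds calcium and docks on the inner face of the plasma membrane or on vesicles, and a variable amino-terminal tail that sets its partners. Small dimeric S100 proteins and penta-EF-hand proteins bind these tails and can bridge membranes. Annexins are known for roles in exocytosis, endosome traffic, the repair of torn plasma membranes and, outside the cell, in fibrinolysis and the resolution of inflammation. They are abundant in epithelia, fibroblasts and endothelium as well as in secretory cells.

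Between 3307415 and 6477825 reads per library were assigned to genes. A floor of 3 counts in a library came to between 0.407 and 1.10 CPM, where CPM are counts scaled to a common library size with trimmed mean of M values (TMM) factors. Such floors cover counting error only. Where 3 values are given for an age, they belong to replicates 1, 3 and 4 at P10 and to replicates 1, 2 and 3 in adults. P10 replicate 1 stood apart from the other P10 libraries: it was the deepest, had counts in 11182 genes against 12062 and 12369, and had 27.7% of its reads without a unique alignment against 23.4% in both others. In adults this share was 17.8%, 15.1% and 16.2%, so that the 2 ages did not overlap in it. Its part in the differences between ages was not tested. Adult replicate 3 stood apart from the other adult libraries in acinar genes, the digestive enzymes of the exocrine pancreas, with a summed level of 4362 CPM against 1114 and 1235. It was also the adult library with the highest level of each annexin but Anxa7, of which it had the lowest. The islet label was met by the endocrine hormone and granule genes. All 10 listed endocrine genes were tested, and their summed level lay between 260787 and 327799 CPM at P10 and between 563943 and 700467 CPM in adults.

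In adult islets 6 of the 8 annexin mRNAs were lower than at P10, 1 was higher and 1 did not pass a false discovery rate (FDR) of 0.05 in edgeR's quasi-likelihood test. Over all tested genes 13.8% were called lower and 12.5% higher, so falls took a larger share of the family and rises a share like that of all genes. The falls were of unequal size. Anxa1 fell 13.9-fold, Anxa2 5.90-fold, Anxa3 5.18-fold and Anxa5 2.06-fold, and these 4 calls held under all 13 alternatives run. Anxa4 and Anxa7 fell by 1.30-fold and 1.33-fold with an FDR close to the threshold, and both calls were lost whichever of the 6 libraries was left out, so that 4 falls were then left each time. Anxa11 rose 1.47-fold, and Anxa6 was not called. The median log2 fold change of the 8 genes was -0.73, beside -0.029 over all tested genes. At least 4-fold falls were called for 3 members and for 4.25% of all tested genes. These are whole islets, so fewer cells of a type and less RNA per cell cannot be told apart in any value given here. Markers of fibroblasts (median log2 fold change -2.34) and of ducts (median -2.40) were lower in the same adults, and their part in these differences was not tested.

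**Figure D1:**
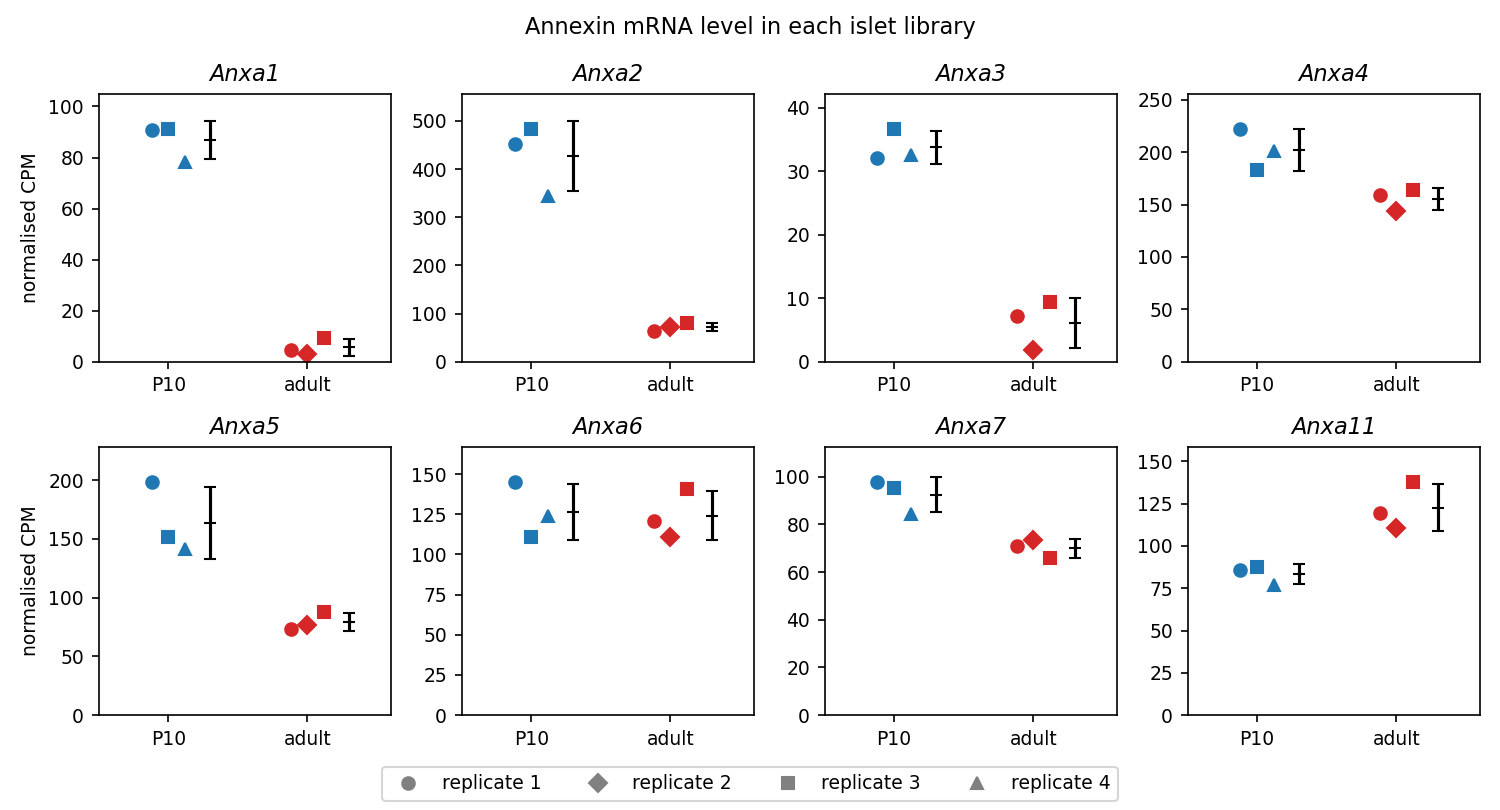
TMM-normalised CPM of each annexin gene (y axis, from 0) in the 3 P10 and 3 adult libraries; symbols give the replicate number, and the black bar the mean with its SD. The 2 ages do not overlap for 7 genes, and Anxa6 is the one where they do.

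Anxa1, a protein induced by glucocorticoids that limits inflammation, went from 90.7, 91.4 and 78.4 CPM at P10 to 4.84, 2.93 and 9.36 CPM in adults. The P10 libraries were close together and the adult ones spread widely around their own low mean. The adult values rested on 14, 8 and 51 reads. The mean was 86.8 ± 7.31 CPM at P10 and 5.71 ± 3.30 in adults (SD, n = 3), a log2 fold change of -3.80 ± 0.28 (SE; edgeR FDR = 1.10e-07). Without adult replicate 3, the adult library with the most Anxa1 and acinar RNA, the fall was 22.0-fold. Those of Anxa2, Anxa3 and Anxa5 were then 6.23-fold, 7.28-fold and 2.17-fold. When each library was left out in turn, the log2 fold change ran from -4.46 to -3.53 for Anxa1 and from -2.69 to -2.45 for Anxa2. By log2 fold change Anxa1 was the 97th lowest of the 10124 tested genes. Its receptors are the formyl peptide receptors, of which only Fpr1 had a row, and no read was assigned to it in any library, so that a level under the floor of 3 counts could not be seen. The collagen gene Col1a2 was also at 0 in every library, beside 31415 P10 reads of Col1a1. A row of 0 alone therefore does not show a low level.

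Anxa2 forms a tetramer with S100a10 that links membranes to actin and, at the cell surface, binds tissue plasminogen activator and plasminogen. It had 452, 484 and 344 CPM at P10 and 64.7, 71.8 and 79.9 CPM in adults. The lowest P10 library was still above every adult library, and the adult libraries varied less. The means were 427 ± 73.2 and 72.1 ± 7.61 CPM (SD, n = 3), with a log2 fold change of -2.56 ± 0.15 (SE; edgeR FDR = 8.76e-09). Over the 3 libraries of each age Anxa2 was counted in 8006 reads at P10 and 818 in adults.

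Anxa3, best known from the granules of neutrophils, was at 32.0, 36.7 and 32.5 CPM at P10. In adults it was at 7.26, 1.83 and 9.36 CPM, from 21, 5 and 51 reads. Adult replicate 2 was the lowest for Anxa3 as it was for Anxa1, and the adult spread was again wide against the adult mean of 6.15 ± 3.89 CPM (SD, n = 3). The log2 fold change was -2.37 ± 0.36 (SE; edgeR FDR = 0.000175) and lay between -2.86 and -1.99 when single libraries were left out.

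Anxa5, which binds exposed phosphatidylserine and serves as the common stain for dying cells, stood at 199, 151 and 141 CPM at P10. It stood at 73.7, 76.6 and 87.6 CPM in adults. P10 replicate 1 was the highest library, but all P10 libraries lay above all adult ones. The log2 fold change was -1.04 ± 0.15 (SE; edgeR FDR = 0.000133), and -0.87 without P10 replicate 1.

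The annexins with small differences were Anxa4, Anxa7 and Anxa6. Anxa4, an annexin of secretory epithelia, was at 222, 183 and 201 CPM at P10 and at 159, 144 and 163 CPM in adults. The groups did not overlap, and the log2 fold change was -0.38 ± 0.13 (SE; edgeR FDR = 0.0395). Without single libraries its FDR ran from 0.05004 to 0.142.

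Anxa7, also called synexin and known for aggregating secretory granules, was at 97.9, 95.4 and 84.2 CPM at P10. It was at 70.9, 73.3 and 65.7 CPM in adults. The groups did not overlap here either, and the log2 fold change was -0.41 ± 0.14 (SE; edgeR FDR = 0.0470). The FDR ran from 0.0555 to 0.145 without single libraries, and was 0.0525 in DESeq2, 0.0533 with relative log expression factors and 0.0702 without the filter.

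Anxa6, which has a longer core than the other members and acts at endosomes, was at 145, 111 and 124 CPM at P10. It was at 121, 111 and 141 CPM in adults. The ages overlapped throughout, with means of 127 ± 17.4 and 124 ± 15.2 CPM (SD, n = 3), and the log2 fold change was -0.025 ± 0.15 (SE; edgeR FDR = 0.922). Its sign turned when P10 replicate 1 (0.10) or adult replicate 2 (0.055) was left out.

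Anxa11, which has a long tail and is known to tether RNA granules to lysosomes and to act in cytokinesis, was at 85.7, 87.7 and 76.7 CPM at P10. In adults it was at 120, 110 and 138 CPM. All adult libraries were above all P10 libraries, the only member of the 8 with that order. The log2 fold change was 0.56 ± 0.14 (SE; edgeR FDR = 0.00811), and the call held whichever library was left out (FDR from 0.00955 to 0.0442). Scaling to library totals alone, without composition factors, shifted the median of all tested genes by -0.49 and left Anxa11 at 0.066 (FDR = 0.779). Under the same scaling Anxa6 was called lower (log2 fold change -0.51, FDR = 0.0186), whereas the falls of Anxa1, Anxa2, Anxa3 and Anxa5 were larger. All directions given here are relative to the bulk of the genes.

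**Figure D2:**
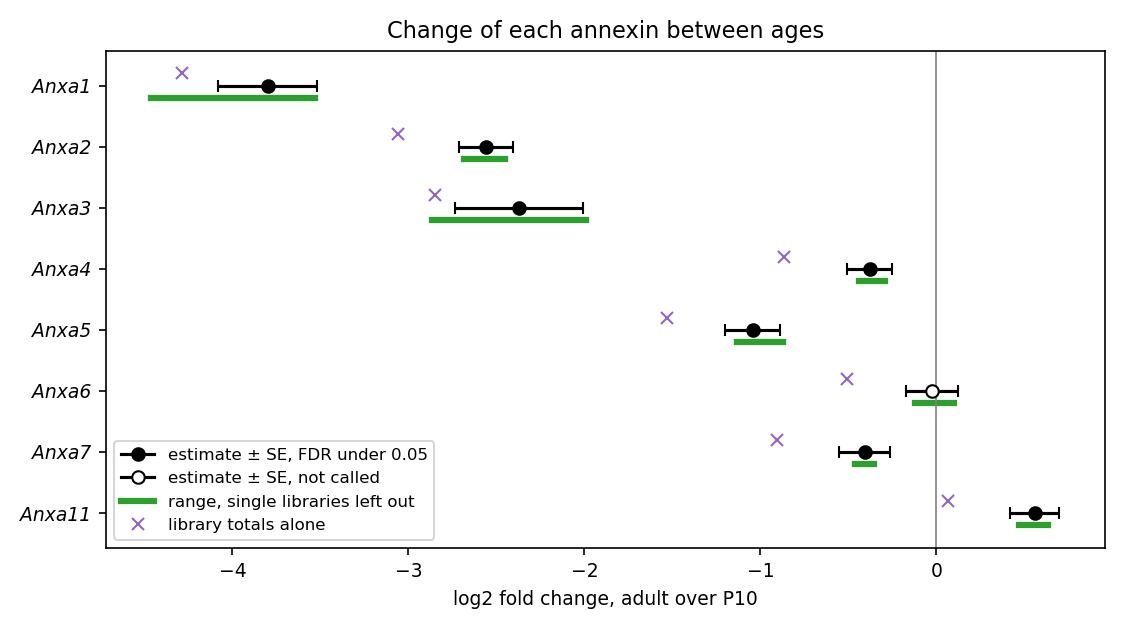
Log2 fold change of each annexin, adult over P10 (x axis), from edgeR with its standard error; filled points passed an FDR of 0.05. Green bars span the values when single libraries were left out and crosses give the values with library totals alone, where Anxa11 moved from 0.56 to 0.066 while Anxa1, Anxa2, Anxa3 and Anxa5 stayed below 0.

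Separation of all P10 from all adult libraries was seen for 7 of the 8 members, beside 42.3% of all tested genes. Together the 8 genes took 0.144% ± 0.0164 of the reads assigned to genes at P10 and 0.0536% ± 0.00695 in adults (SD, n = 3). In normalised CPM their sum was 1216 ± 123 and 635 ± 52.9 (SD, n = 3). Without Anxa2 the sums were 789 ± 73.1 and 563 ± 47.7 CPM (SD, n = 3), so that Anxa2 made up a large part of the difference.

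The promoters of the 3 annexins with the largest falls and of Anxa11, the 1 that rose, are shown because members that moved together or apart can be compared in them. Each covers 250 bases before and 50 after the transcription start, from RefSeq on the GRCr8 build, in the direction of the gene. Capitals mark 3 motifs, searched on both strands and without overlap in the sequences shown: the AP-1 site TGANTCA, the GC box GGGCGG bound by Sp1, and the TATA box TATAAA. A sequence was found for 7 of the 8 members, all but Anxa6.
Anxa1, chr1:227303683-227303982, minus strand: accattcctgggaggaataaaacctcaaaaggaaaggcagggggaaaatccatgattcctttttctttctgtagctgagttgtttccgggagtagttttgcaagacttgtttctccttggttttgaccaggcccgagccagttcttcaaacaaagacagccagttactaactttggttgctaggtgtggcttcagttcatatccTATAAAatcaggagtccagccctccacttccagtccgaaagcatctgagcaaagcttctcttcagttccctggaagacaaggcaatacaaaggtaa
Anxa2, chr8:78986002-78986301, plus strand: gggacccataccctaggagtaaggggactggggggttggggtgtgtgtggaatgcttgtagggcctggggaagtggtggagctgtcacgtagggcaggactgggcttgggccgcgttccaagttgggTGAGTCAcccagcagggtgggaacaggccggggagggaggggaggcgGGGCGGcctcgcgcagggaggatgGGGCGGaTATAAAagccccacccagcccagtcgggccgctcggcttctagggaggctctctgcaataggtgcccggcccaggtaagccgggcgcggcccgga
Anxa3, chr14:13085548-13085847, minus strand: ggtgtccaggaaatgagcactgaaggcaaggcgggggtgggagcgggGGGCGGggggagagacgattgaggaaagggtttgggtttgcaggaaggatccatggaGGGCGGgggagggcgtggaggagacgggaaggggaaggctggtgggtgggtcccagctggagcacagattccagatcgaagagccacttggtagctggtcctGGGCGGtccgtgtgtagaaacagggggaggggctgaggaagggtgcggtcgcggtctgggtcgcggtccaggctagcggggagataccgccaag
Anxa11, chr16:1419484-1419783, plus strand: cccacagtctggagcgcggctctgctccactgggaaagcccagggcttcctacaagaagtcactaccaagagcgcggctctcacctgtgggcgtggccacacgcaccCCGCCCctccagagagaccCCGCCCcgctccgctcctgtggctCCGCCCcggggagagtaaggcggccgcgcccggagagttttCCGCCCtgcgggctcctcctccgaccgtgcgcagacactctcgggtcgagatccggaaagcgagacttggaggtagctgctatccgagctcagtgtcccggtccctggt
Anxa1 had a TATA box and neither other motif. Anxa2 had a TATA box just after a GC box, a further GC box and the only AP-1 site among the 7 promoters. Anxa3 had 3 GC boxes and Anxa11 had 4, on the opposite strand, and neither had a TATA box. Anxa4, Anxa5 and Anxa7 had 1 GC box each and no other motif. Among 33469 rat promoters of the same length 33.1% held the GC box, 14.2% the TATA box and 7.33% the AP-1 site. These are matches of letters and not binding sites, and no motif was common to Anxa1, Anxa2 and Anxa3. An absent match says only that these letters are not in this window.

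A ratio of 2 genes within a library does not depend on the scaling, though its size also reflects the lengths of both transcripts, so that only its change with age is described. Anxa7 was used as the reference because it is widely expressed and well counted. It was itself lower in adults (log2 fold change -0.41, edgeR FDR = 0.0470), which raises every ratio to it in adults. For each Anxa7 read there were 0.927, 0.958 and 0.931 reads of Anxa1 at P10, and 0.0683, 0.0400 and 0.142 in adults. For Anxa2 the mean ratio went from 4.59 ± 0.494 to 1.04 ± 0.159 (SD, n = 3). The 2 ages were far apart in both ratios. Anxa3 went from 0.366 ± 0.0338 to 0.0900 ± 0.0597 and Anxa5 from 1.76 ± 0.233 to 1.14 ± 0.168 (SD, n = 3).

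In the other direction, Anxa11 went from 0.902 ± 0.0232 to 1.76 ± 0.304 reads per Anxa7 read (SD, n = 3). Anxa6 went from 1.37 ± 0.183 to 1.79 ± 0.322, while its own log2 fold change was -0.025 and that of Anxa7 was -0.41. For these 6 ratios no P10 library overlapped an adult one, which gives an exact two-sided permutation p of 0.1, the smallest that 3 against 3 libraries allow, or 0.117 adjusted over the 7 ratios. Anxa4 had 2.19 ± 0.242 and 2.23 ± 0.263 reads per Anxa7 read, with overlapping libraries (exact permutation p = 0.8, also adjusted). Set against Anxa11 in place of Anxa7, all 7 other members lay lower in adults without overlap (exact permutation p = 0.1, also adjusted). Anxa11 was itself higher in adults (log2 fold change 0.56, edgeR FDR = 0.00811), which lowers every ratio to it in adults. A lower ratio to Anxa11 alone therefore does not show a fall of the other gene. The ratio of Anxa6 to Anxa11 was 1.01, 1.00 and 1.02 in adults, against 1.69, 1.26 and 1.61 at P10.

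**Figure D3:**
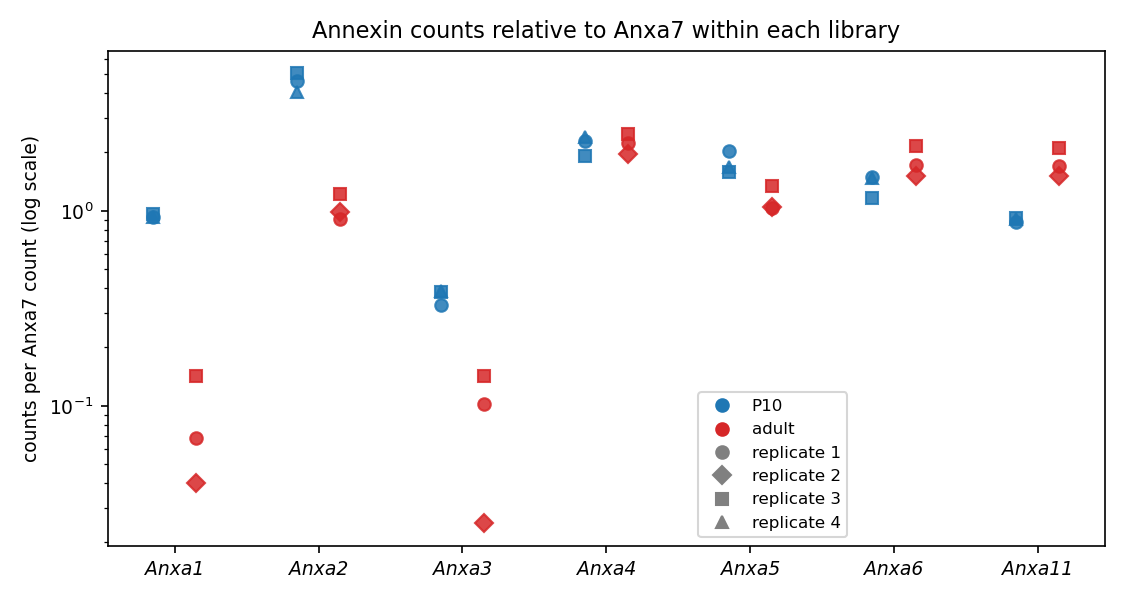
Reads of 7 annexins per Anxa7 read within each library (log y axis), with P10 in blue and adult in red and symbols for the replicate number. Anxa1, Anxa2, Anxa3 and Anxa5 lie lower in all adult libraries, Anxa6 and Anxa11 higher, and Anxa4 overlaps between the ages. Anxa7 itself was lower in adults.

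The genes whose levels over the 6 libraries were most like each annexin were found from log2 CPM centred on its mean, as the root mean square (RMS) difference. These are descriptions over libraries of only 2 ages. Nearest to Anxa1 was Krt19, a keratin of duct cells, at an RMS difference of 0.10 log2 units, followed by Plod2, a collagen lysyl hydroxylase, at 0.33. Nearest to Anxa2 were Dbn1, the actin-binding drebrin (0.10), and Tgm2, a transglutaminase that crosslinks proteins (0.13). Anxa3 had no gene as close, with Prkcdbp, a caveolar coat protein, and C4a, a complement component, at 0.29 and 0.30.

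For the members with smaller differences the nearest genes were closer in value. They were Fkbp4 and Dscr3 for Anxa4, Pycrl and Psmc6 for Anxa5, and Ttc5 and Cops4 for Anxa6. They were Rab35 and Phb for Anxa7, and Pja2 and Slc44a1 for Anxa11. These 10 RMS differences lay between 0.0407 (Rab35) and 0.0677 (Psmc6) log2 units. Within the family Anxa4 and Anxa7 were the closest pair, at 0.14, and Anxa1 and Anxa11 the most distant, at 2.21.

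Of 4 further annexins listed, 3 had a row, of which Anxa8 and Anxa10 are named after their values were seen. Anxa13, an annexin of gut and kidney epithelium, had 60, 43 and 26 reads at P10 and 6, 2 and 4 in adults. It fell 6.02-fold, or 9.19-fold without adult replicate 1 (log2 fold change -2.59 ± 0.65, SE; edgeR FDR = 0.00823). Anxa10 went from 71.3 ± 9.68 to 50.2 ± 10.7 CPM (SD, n = 3) and missed the threshold (log2 fold change -0.52 ± 0.19, SE; edgeR FDR = 0.0515). Over its alternatives the FDR of Anxa10 ran from 0.000706 to 0.226. Anxa8 did not pass the filter, with 0, 39 and 19 reads at P10 and 3 reads in all adult libraries together, so that P10 replicate 1 differed from the other P10 libraries.

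Of 6 listed genes of S100 proteins that bind annexin tails, 5 were tested. All 5 were lower in adult islets, with a median log2 fold change of -2.47. S100a1, named after its values were seen, did not pass the filter, with 19 reads at P10 and 38 in adults. Over all tested genes 13.8% were called lower. S100a10, the partner of Anxa2, was at 202, 225 and 150 CPM at P10 and at 52.2, 33.7 and 61.9 CPM in adults. Its fall was 3.87-fold (log2 fold change -1.95 ± 0.20, SE; edgeR FDR = 4.55e-06). S100a11, which binds Anxa1, was at 91.1, 82.2 and 74.5 CPM and then at 7.26, 15.8 and 20.4 CPM in the same order. It fell 5.53-fold (log2 fold change -2.47 ± 0.26, SE; edgeR FDR = 5.35e-06). S100a6, which binds several annexins including Anxa11, and S100a4 fell too, with log2 fold changes of -3.04 and -2.12.

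Anxa2 and S100a10, and likewise Anxa1 and S100a11, were lower in the same libraries, and the ratios within each pair were lower in adults too. There were 2.23, 2.15 and 2.29 Anxa2 reads per S100a10 read at P10, and 1.24, 2.13 and 1.29 in adults. Adult replicate 2 stood near the P10 libraries. Anxa1 had 1.05 ± 0.0583 reads per S100a11 read at P10 and 0.437 ± 0.241 in adults (SD, n = 3). Both ratios, added after the data were seen, did not overlap between the ages (exact two-sided permutation p = 0.1, also adjusted over both).

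None of the 4 penta-EF-hand partners was called, beside 13.8% called lower and 12.5% called higher over all tested genes. Their median log2 fold change was -0.020. Pdcd6, or ALG-2, the calcium sensor that binds Anxa7 and Anxa11, had 40.7, 47.7 and 58.0 CPM at P10. It had 48.4, 39.6 and 37.3 CPM in adults, which overlapped (log2 fold change -0.22, edgeR FDR = 0.426). With library totals alone Pdcd6 was called lower (-0.72, FDR = 0.0116). The smallest p was that of Gca, grancalcin, with a log2 fold change of 0.48 and an FDR of 0.183.

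In the plasminogen list, whose proteins meet Anxa2 at the cell surface, 6 of 7 genes were tested, 3 fell and 1 rose, with a median log2 fold change of -0.89. The riser was Plat, the tissue plasminogen activator itself, from 242 CPM on average at P10 to 480 in adults (log2 fold change 0.98 ± 0.14, SE; edgeR FDR = 0.000125). It therefore went opposite to Anxa2. Serpine2, an inhibitor of serine proteases, and Plaur, the urokinase receptor, fell with log2 fold changes of -1.43 and -1.14. The Plaur call was lost without P10 replicate 3 (FDR = 0.0678). Of 8 phospholipase A2 genes, named since annexins were first described as inhibitors of these enzymes, 2 fell and 1 rose (median log2 fold change -0.41). For this list and the plasminogen list, the shares over all tested genes were 13.8% lower and 12.5% higher. The 1 rise among 8 phospholipase A2 genes was a share like that of all genes. Pla2g4a and Pla2g16 fell (log2 fold changes -2.63 and -2.61), Pla2g4b rose (0.95), and the other 5 were not called. Without adult replicate 3 the falls of Pla2g4a and Pla2g16 were 3.66-fold and 3.93-fold, and without adult replicate 1 they were 9.46-fold and 10.1-fold, beside 6.19-fold and 6.12-fold with all libraries. The rise of Pla2g4b held without P10 replicate 3 and was lost without any other single library (FDR from 0.0643 to 0.183) and with library totals alone (FDR = 0.320).

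Of the membrane repair and caveolae genes 19 of 20 were tested, 9 fell and 3 rose, with a median log2 fold change of -0.81 beside -2.34 for the fibroblast markers. Ahnak, a giant scaffold bound by the Anxa2 and S100a10 complex, and Ptrf, the caveolar coat protein cavin-1, fell with log2 fold changes of -2.12 and -2.68. Trim72, a repair protein best known in muscle, rose from 9.31 to 41.7 CPM on average (log2 fold change 2.15 ± 0.34, SE; edgeR FDR = 0.000225). In the list of phosphatidylserine exposure and clearance, the lipid that Anxa5 binds, 13 of 16 genes were tested, 4 fell and 1 rose, with a median of -0.41. Beside the counts of both lists, 13.8% of all tested genes were called lower and 12.5% higher. Mfge8, a bridge between exposed lipid and phagocytes, fell from 140 to 28.1 CPM on average, and Pros1, protein S, fell by 1.93 on the log2 scale, a call lost on leaving out P10 replicate 1, P10 replicate 3, adult replicate 2 or adult replicate 3 (FDR from 0.0543 to 0.0702). Ano6, a lipid scramblase, rose (0.59, edgeR FDR = 0.00653), but not with library totals alone (0.083, FDR = 0.712). Without single libraries between 1 and 3 genes of this list fell.

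**Figure D4:**
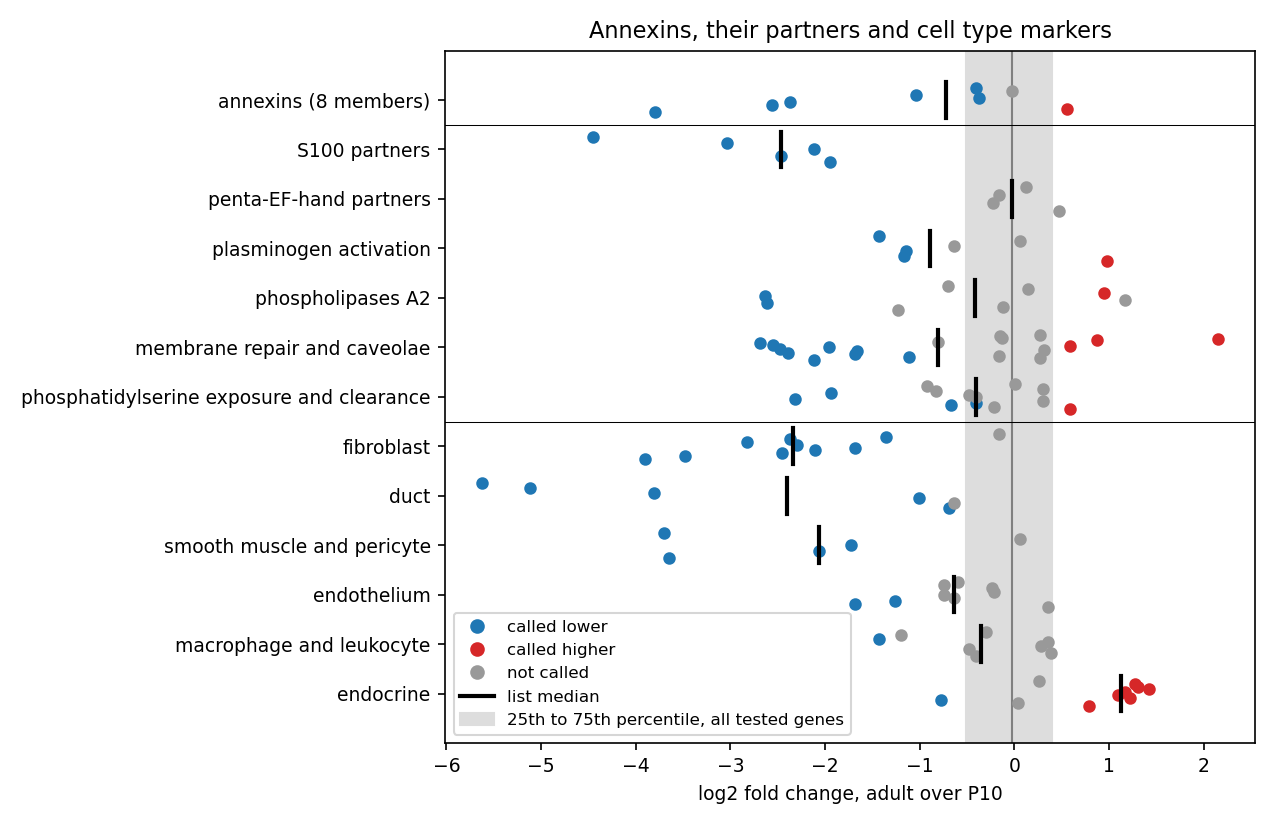
Log2 fold change, adult over P10 (x axis), of the tested genes of the annexin family, of 6 partner and pathway lists and of 6 cell type marker lists; the black tick is the median of each list. The grey band spans the 25th to 75th percentile of all tested genes (-0.51 to 0.40), and all 5 S100 partners, all 6 duct markers and 9 of 10 fibroblast markers lie to its left, with Thy1 (-0.16) inside it.

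Markers of other cell types that an islet preparation can hold were lower in the same adult libraries as Anxa1, Anxa2, Anxa3 and Anxa5. Fibroblast markers fell in 9 of 10 tested cases, with a summed level between 3004 and 3847 CPM at P10 and between 368 and 471 CPM in adults, and Col1a2 was listed at 0 in every library. Duct markers fell in 5 of 6 cases, from sums between 1653 and 1800 CPM to sums between 389 and 562 CPM. Smooth muscle and pericyte markers fell in 4 of 5 cases, from between 215 and 274 to between 25.9 and 36.3 CPM. The median log2 fold changes of these lists were -2.34, -2.40 and -2.06. Among all tested genes 13.8% were called lower.

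Endothelial markers were called lower in 2 of 9 cases (sums of 197 to 305 and 116 to 174 CPM). Those of macrophages and leukocytes were called lower in 1 of 8 (127 to 283 and 105 to 174 CPM), and those of Schwann cells and glia in 1 of 2, S100b, which is also on the S100 list (18.2 to 28.8 and 6.57 to 13.2 CPM). The medians of these 3 lists were -0.63, -0.35 and -2.75. Among all tested genes 13.8% were called lower and 12.5% higher, and the macrophage and leukocyte share was like the former. Of the endocrine genes 7 of 10 rose and 1 fell (median 1.13). Acinar genes went both ways, with 3 higher and 3 lower of 9 and a median of 0.58 (2862 to 4186 and 1114 to 4362 CPM). Without adult replicate 3 there were 2 higher and 4 lower acinar genes and the median turned to -0.52, while without adult replicate 1 or 2 only 1 was lower. The median of macrophage and leukocyte markers turned to 0.051 without P10 replicate 1, where 1 gene was also higher, and their call was lost without adult replicate 2. Without that library 2 glial genes of 4 tested were lower. The part of these cell types in the annexin differences was not tested.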

How the data were processed

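The deposited files hold raw counts of reads for each gene symbol in each library. The libraries were single-end and kept no strand, per the labels' protocols; the submitters' processing notes name Bowtie2, HTSeq, TopHat2 2.0.10 and the build rn5, and DESeq and edgeR with no role. The 5 counter rows were not used as genes; ambiguous reads were 0.319% to 0.474%, and reads without a unique alignment 15.1% to 27.7%, of all rows together. In the GRCr8 annotation the spans of Anxa4, Anxa6 and Anxa7, from start to end, overlap those of other genes. Reads from any shared exons could not be told apart without strand. Whether exons overlap was not examined, and neither was the rn5 build.

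All 6 libraries entered an edgeR 4.0.16 quasi-likelihood fit (R 4.3.3) with age group only, after filterByExpr (minimum count 10, total 15) and TMM scaling, adjusted by Benjamini-Hochberg over 10124 genes. SE is |log2 fold change| over the root of F, and folds are fitted. P-values set the difference between ages against the spread between libraries, which the labels do not tie to single animals or to pools. Ratios were tested by exact two-sided permutation over libraries. Likeness used log2(CPM + 1).

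Of each list at most 3 genes are named: the 2 smallest p in the direction most called genes took and the 1 smallest in the other, and in any case S100a10, S100a11 and Pdcd6. Members and lists were chosen with earlier results of these data known. The alternatives used other scaling (relative log expression, library totals, TMM leaving hormone and acinar genes aside), DESeq2 1.42.0, other filters (none, or 5 CPM in 3 libraries), a replicate block, each library left out, and Anxa11 as the reference of ratios. Leaving out libraries for each marker list alone was added after the data were seen. In simulated counts for this comparison (9923 genes) the fit called 46 of the 98 genes set to a 2-fold change and 83 of the 98 set to a 4-fold change. It called 7 of 9727 unchanged genes. Far fewer genes were changed there than were called in the data (1265 higher and 1394 lower). The adjustment depends on that share, so these rates need not hold for the data.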

Additional observations from a re-analysis of the deposited data

How the results depend on the processing

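The calls of Anxa1, Anxa2, Anxa3 and Anxa5 and their direction held under the 13 alternatives. With library totals alone 343 genes were higher and 3612 lower over all tested genes (1265 and 1394 with TMM), 0 annexins were higher and 7 lower, and 2 genes of the partner and pathway lists together were higher (6 with TMM), while Gca turned from 0.48 to -0.033. With the replicate number as a block 679 genes were higher and 729 lower, and 0 annexins were higher and 4 lower, with Anxa11 at 0.57 (edgeR FDR = 0.0804) and Anxa6 turned to 0.045 (FDR = 0.921). Numbers 1 and 3 occur in both groups. Deviations of same-numbered libraries from their group means correlated at -0.0266 and -0.0043 across genes. With 3 libraries per age, such values cannot show whether same-numbered libraries were handled together. Leaving out single libraries gave 4 lower annexins and 1 higher each time, and Anxa6 turned sign without P10 replicate 1 (0.10) and adult replicate 2 (0.055), within a range of -0.12 to 0.10. Against Anxa11 in place of Anxa7 the log2 ratio of Anxa4 turned from 0.024 to -0.93 and that of Anxa6 from 0.37 to -0.58. With TMM, Anxa7 was itself lower in adults and Anxa11 higher. Without single libraries the Anxa4 ratio to Anxa7 ran from -0.069 to 0.11, turning sign without P10 replicate 3 (-0.069) and adult replicate 3 (-0.059). The cause of these changes was not tested. Depth limits the adult values of Anxa1 and Anxa3, which rest on 73 and 77 reads over 3 libraries.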
